A study of Saccharomyces cerevisiae with 8 samples.

Results

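Decapping Pyrophosphohydrolase was compared with Cap-Clip as the enzyme that opens the messenger RNA cap before 5′ ends are ligated and counted. The comparison held 4 of the 8 libraries of the series, replicates 1 and 2 of each enzyme, taken by the names of their columns. It covered 6002 nuclear protein-coding genes of yeast, and 798180 positions that lay in a gene window and had a tag in at least 1 of the 4 libraries, of 1643818 positions in the whole table. A tag is 1 counted 5′ end. A gene window took in 400 nt before the start codon and the region up to the stop codon, on the strand of the gene, introns included. Positions are numbered from the start codon along the genome, introns included, with +1 its first base and -1 the base before it.

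All libraries came from BY4741, a MATa laboratory strain of Saccharomyces cerevisiae with the alleles his3delta1, leu2delta0, ura3delta0 and met15delta0, grown to mid-log phase at 30 °C in rich glucose medium. Total RNA was treated with a phosphatase, which makes uncapped 5′ ends unable to ligate, and was then divided in 4. The aliquots received 5 units of Tobacco Acid Pyrophosphatase (TAP), Cap-Clip or Decapping Pyrophosphohydrolase, or no enzyme, so the strain and the phosphatase step are shared by all groups. Polyadenylated RNA was selected after ligation. The study used 2 biological replicates of 1 strain in 1 medium, each divided into the 4 aliquots.

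The cap is a methylated guanosine joined to the first base of the transcript through a chain of phosphates. RNA ligase cannot use a capped end until a pyrophosphatase cuts that chain and leaves a single phosphate. Budding yeast starts transcription at several positions per promoter, most often at a purine that follows a pyrimidine, here called a pyrimidine-purine step. Tags inside coding regions, called body tags here when they lie more than 50 nt into the coding region, are counted apart because most capped ends lie upstream of the start codon.

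The Cap-Clip libraries held 1268757 and 8475181 tags and the Decapping Pyrophosphohydrolase libraries 1789278 and 3479399. Over 5249 genes, log2 CPM (tags scaled to 1000000 per library) had a correlation of 0.987 within Cap-Clip, 0.98 within Decapping Pyrophosphohydrolase and 0.948 to 0.962 across enzymes. Counting error did not account for the difference between replicates, whose chi-square was 11.2 (Cap-Clip) and 13.3 (Decapping Pyrophosphohydrolase) times its degrees of freedom. The no-enzyme libraries, with 736236 and 80721 tags, stood apart from each other: body tags made up 84.6% of the window tags of replicate 1 and 24.7% of those of replicate 2. They are given below as single values. The MATa genes MFA1, MFA2, STE2, BAR1, STE6 and AGA2 had tags in all 4 compared libraries, the MATalpha genes MF(ALPHA)1, MF(ALPHA)2, STE3 and SAG1 stayed at or under 5.64 CPM, LEU2 and MET17 had 0 tags, and URA3 had 1 tag in Cap-Clip replicate 2. HIS3, of which his3delta1 lacks only a part, had 234 and 2276 tags with Cap-Clip and 424 and 1164 with Decapping Pyrophosphohydrolase (log2 fold change 0.81, standard error 0.17, adjusted p = 0.00152 with edgeR and TMM, and 0.32, adjusted p = 0.160 with column totals).

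The sequences of 11 positions with more tags after Decapping Pyrophosphohydrolase come first, because the first bases of tags recur in the later results. Each sequence runs 5′ to 3′ on the strand of the gene, from 9 bases before the tag, with the first 2 bases of the tag in capitals and coordinates of R64 (sacCer3). The first 7 tags begin with 2 thymines, that of GLN1 with thymine and adenine, that of RPL5 with cytosine and thymine, and those of CDC19 and PMA1 with adenine and thymine.
RPP2B at -64 (chrIV:1239419-1239448, plus strand): gtccgcgaaTTtattaccgcttaaactgat
ACB1 at -26 (chrVII:560000-560029, minus strand): actctaaaaTTagttaaactagtgttttca
BAT2 at -37 (chrX:705698-705727, plus strand): ttttagaaaTTtaagggaaagcatctccac
TDH2 at -37 (chrX:454698-454727, minus strand): gaacttagtTTcaaattaaattcatcacac
RPL17B at +279 (chrX:91055-91084, plus strand): cgttcaaggTTtgttgcaaaacgccgctgc
RPS27B at +568 (chrVIII:148082-148111, minus strand): agttcaagaTTtgttgcacccaactgctgc
RPS12 at -59 (chrXV:1028664-1028693, minus strand): acggagcagTTtaattatcttactgtcgaa
GLN1 at -108 (chrXVI:642091-642120, plus strand): acacaaagaTAactatagaatcacatacat
RPL5 at +327 (chrXVI:303438-303467, plus strand): cagaagaacCTtgcaaaagttgggtttgga
CDC19 at +18 (chrI:71794-71823, plus strand): attagaaagATtgacctcattaaacgttgt
PMA1 at -6 (chrVII:482652-482681, minus strand): tcaaacaatATcaatatgactgatacatca

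The next 7 positions had fewer tags after Decapping Pyrophosphohydrolase. All 7 tags begin with adenine, and the first 6 lie at a pyrimidine-purine step, whereas an adenine precedes the tag of RPS12.
HAC1 at -66 (chrVI:75104-75133, plus strand): taaacttccAAggctttaactcagtgtcaa
NOP16 at -64 (chrV:156730-156759, plus strand): caaaaaagcAGagttcaagatattgagttt
SNU13 at -116 (chrV:101818-101847, plus strand): tcaagtcctACtttcaaatcttaatttaaa
GLN1 at -117 (chrXVI:642082-642111, plus strand): aagaacatcACacaaagataactatagaat
BAT2 at -57 (chrX:705678-705707, plus strand): aaacagactAActactaaaattttagaaat
RAD23 at -159 (chrV:82742-82771, minus strand): agaaggtacACttaggtttttctccctgtt
RPS12 at -31 (chrXV:1028636-1028665, minus strand): aagaagtcaAAaactagactatatattatt

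The gene totals show whether both enzymes recover each gene to the same extent. With TMM scaling, which sets the bulk of genes level between libraries, 912 of 5249 tested genes were higher with Decapping Pyrophosphohydrolase (17.4%) and 826 were lower (15.7%) by edgeR's quasi-likelihood test at an adjusted p under 0.05. Of these, 217 were higher and 126 lower by at least 1 on the log2 scale. With column totals as library sizes, 230 of 5302 genes were higher (4.34%) and 2544 lower (48.0%), 52.3% in either direction. The median log2 fold change was -0.01 with TMM and -0.51 with column totals, so the scaling moves every gene by about 0.50. Under both scalings 227 genes were higher and 826 were lower, and 0 were called in opposite directions. Without Cap-Clip replicate 2, the deeper of its group, the TMM counts were 502 and 383, and without Decapping Pyrophosphohydrolase replicate 2 they were 705 and 512. CPM values below use TMM-scaled library sizes, each log2 fold change is Decapping Pyrophosphohydrolase against Cap-Clip, and ± beside it is its standard error.

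**Figure D1:**
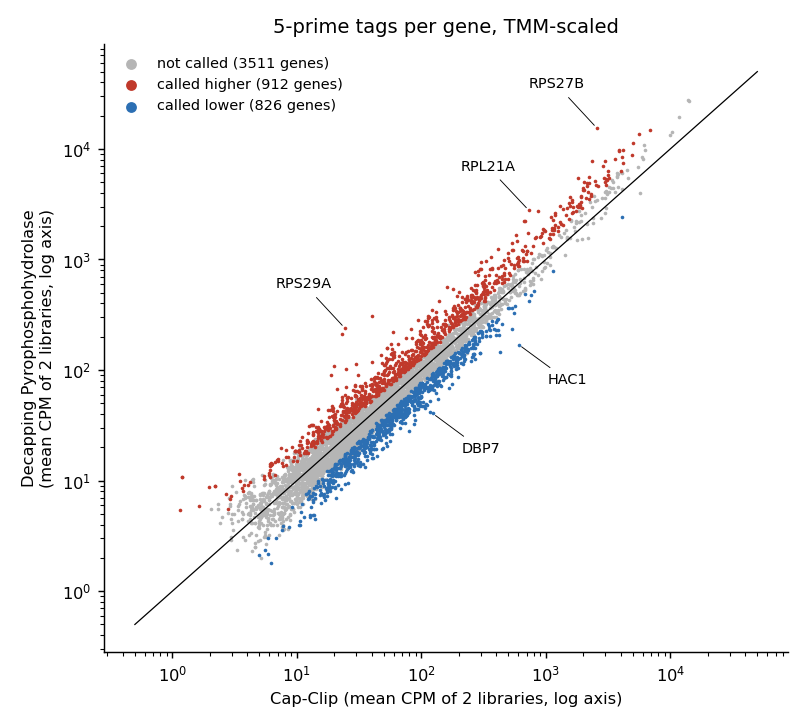
Mean CPM per gene with Cap-Clip (x) and Decapping Pyrophosphohydrolase (y), 2 libraries each, on logarithmic axes. Genes called higher number 912 and genes called lower 826 of 5249, and at the highest levels more of the called genes lie above the line of equal levels than below it.

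Many genes for proteins of the cytosolic ribosome were higher with TMM. Over all tested genes 17.4% were higher and 15.7% lower with TMM, and 4.34% and 48.0% with column totals. In the large subunit list 51 of 81 genes rose and 0 fell, with a median log2 fold change of 0.69 with TMM and 0.22 with column totals. In the small subunit list 40 of 57 rose and 1 fell, with medians of 0.76 and 0.30. With column totals, 27 large subunit genes were higher and 4 lower, and 20 small subunit genes were higher and 7 lower. Many of these genes are near-identical pairs. The sharing of reads between copies was not tested, so the counts of single copies are uncertain.

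RPS27B, which encodes a protein of the small subunit, was among the 10 most abundant genes. It had 3213 and 1920 CPM with Cap-Clip and 17548 and 13373 CPM with Decapping Pyrophosphohydrolase. Both values of the second enzyme were far above both of the first, and TAP gave 1842 and 1804 CPM. Without enzyme RPS27B had 869 and 10245 CPM scaled to column totals. The log2 fold change was 2.59 ± 0.30 (adjusted p = 4.91e-06). RPL21A, of the large subunit, rose from 807 and 654 CPM to 3025 and 2540 CPM (1.93 ± 0.20, adjusted p = 1.18e-06). RPL39, also of the large subunit, rose from 3051 and 1644 CPM to 8711 and 6844 CPM (1.73 ± 0.29, adjusted p = 0.000215). Without enzyme RPL21A had 596 and 1858 CPM and RPL39 955 and 6256 CPM, scaled to column totals.

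In 4 ribosomal protein genes with large changes the main cluster of starts lay beyond the window. RPS29A had 23.7 and 24.7 CPM in its window with Cap-Clip and 287 and 193 CPM with Decapping Pyrophosphohydrolase, the largest change among the named genes (3.27 ± 0.19, adjusted p = 2.88e-09). Beyond the window, up to 800 nt upstream and with a peak at -530, it had 940 and 730 CPM with Cap-Clip and 2389 and 1862 CPM with Decapping Pyrophosphohydrolase. RPS29B (3.11 ± 0.19), RPS25B (2.42 ± 0.22) and RPL24A (1.86 ± 0.15) had upstream peaks at -453, -468 and -504. The windows of these 4 genes therefore hold tags downstream of the main starts.

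GCN4, the transcription factor of amino acid starvation, has a long leader with short upstream reading frames and showed the same layout. Its window had 37.5 and 42.8 CPM with Cap-Clip and 256 and 360 CPM with Decapping Pyrophosphohydrolase (2.91 ± 0.18, adjusted p = 2.88e-09). Its fullest upstream position was at -571, and the region beyond the window up to 800 nt upstream had 524 and 570 CPM against 629 and 926 CPM. Without enzyme the window of GCN4 had 720 and 310 CPM scaled to column totals, and that of RPS29A 316 and 198 CPM. The part of uncapped or cut RNA in these windows was not tested.

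The other genes named for a large increase were shorter than most. LSM7, a subunit of the Lsm ring that takes part in messenger RNA decay, rose from 161 and 163 CPM to 549 and 583 CPM (1.81 ± 0.14, adjusted p = 7.31e-08). ERI1, which acts in the synthesis of membrane anchors, rose from 32.1 and 27.6 CPM to 125 and 101.4 CPM (1.96 ± 0.17). YMR230W-A and MTC7 were also called higher (2.12 and 1.98), but 100% and 81.7% of their tags lay in the window of another gene as well.

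HAC1, the transcription factor of the unfolded protein response, had the largest decrease among the named genes. It had 614 and 596 CPM with Cap-Clip and 128 and 211 CPM with Decapping Pyrophosphohydrolase, and the groups lay well apart. TAP gave 555 and 697 CPM. The log2 fold change was -1.81 ± 0.20 (adjusted p = 1.17e-05) with TMM and -2.29 with column totals. DBP7, an RNA helicase of ribosome assembly, fell from 135 and 112 CPM to 43.0 and 38.2 CPM (-1.59 ± 0.17, adjusted p = 1.91e-06). RRP15, which acts in the maturation of ribosomal RNA, fell from 422 and 441 CPM to 165 and 127 CPM (-1.58 ± 0.17, adjusted p = 1.44e-06).

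The remaining 9 genes named for a decrease were SSL1 (a subunit of the general transcription factor TFIIH), VBA4, SLK19 (a kinetochore protein), FYV8, MUD2 (a splicing factor), FOB1 (which blocks replication forks in ribosomal DNA), VPS70, YDL177C and MAD1 (a spindle checkpoint protein). Their log2 fold changes ran from -1.47 in SSL1 to -1.36 in MAD1. The 10 most abundant genes were chosen by mean CPM over the 4 compared libraries, which favours genes that are high with 1 of the enzymes. Their directions are therefore a description. Of these 10, RPS27B, FBA1 (aldolase, 1.28 ± 0.30), RPL36B (1.18 ± 0.28) and RPS31 (1.09 ± 0.31) rose. The other 6, RPL41B, CCW12, CWP2, RPL41A, YDR524C-B and TDH3, had log2 fold changes between 0.43 and 1.00 and adjusted p between 0.0655 and 0.389, and were not called. With column totals RPL41B (0.56, adjusted p = 0.0191) and CCW12 (0.50, adjusted p = 0.0383) were called higher, and the adjusted p of the other 4 lay between 0.124 and 0.944.

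The counts of the gene lists below are read against all tested genes, of which 17.4% were higher and 15.7% lower with TMM, and 4.34% and 48.0% with column totals.

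Factors that assemble ribosomes had more lower than higher calls. Among ribosome biogenesis factors 3 of 62 genes rose and 27 fell, with a median of -0.33 with TMM, and 1 was higher and 51 lower with column totals (median -0.82). RIA1, a GTPase of large subunit maturation, fell from 55.9 and 47.3 CPM to 21.1 and 22.8 CPM (-1.17 ± 0.20), whereas NSR1, a nucleolar protein, rose from 856 and 817 CPM to 1579 and 1615 CPM (0.93 ± 0.18). The median coding span, the distance from start to stop codon, was 1783 nt in this list, 795 nt in the large subunit list, 768 nt in the small subunit list and 1245 nt over all tested genes. Mitochondrial ribosomal proteins had 21 of 69 higher and 12 lower with TMM (median 0.12), and with column totals the balance turned to 3 higher and 27 lower (median -0.38). RSM19 rose by 1.23 ± 0.14 on the log2 scale and MRPL51 fell by 0.52 (SE 0.16).

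In the rest of gene expression the calls went both ways with TMM and were mostly lower with column totals. Translation factors had 8 of 38 higher and 7 lower (median 0.15) with TMM and 2 higher and 14 lower (median -0.33) with column totals. SUI1, an initiation factor of start codon choice, was higher by 1.16 ± 0.21 with TMM, and TIF4631, the scaffold that binds the cap-binding protein, was at -0.69 ± 0.15. Transfer RNA synthetases had 4 of 21 higher and 3 lower (median -0.14), and 0 higher and 11 lower with column totals (-0.62). GLN4, of this list, fell from 306 and 223 CPM to 197 and 148 CPM. RNA polymerase subunits had 8 of 31 higher and 12 lower (median -0.18), and 2 and 19 with column totals (-0.67). RPC37, of polymerase III, fell from 256 and 258 CPM to 144 and 118 CPM, and RPO21, the largest subunit of polymerase II, rose from 16.1 and 20.7 CPM to 43.0 and 44.1 CPM. The list of capping, cap-binding and decapping genes had 7 of 33 higher and 11 lower (median -0.09), and 2 and 19 with column totals (-0.58). CDC33, the cap-binding protein of translation, rose from 702 and 604 CPM to 1081 and 989 CPM (0.67 ± 0.16) with TMM and was not called with column totals (0.20, adjusted p = 0.390).

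The lists of metabolic genes had more higher than lower calls with TMM, and of these glycolysis and fermentation alone kept more higher calls with column totals. In it 11 of 19 genes rose and 0 fell (median 0.64) with TMM, and 4 and 0 with column totals (0.17). GPM1, phosphoglycerate mutase, rose from 3111 and 2598 CPM to 6466 and 7671 CPM (1.31 ± 0.25). In respiration and the citrate cycle 15 of 48 rose and 1 fell (median 0.26) with TMM, and 6 were higher and 11 lower with column totals (-0.22). ATP7, a subunit of the ATP synthase, rose from 112 and 115 CPM to 326 and 294 CPM (1.44 ± 0.14), and SDH3, of succinate dehydrogenase, by 1.36 ± 0.14. In amino acid synthesis 18 of 59 rose and 1 fell (median 0.27) with TMM, and 2 were higher and 16 lower with column totals (-0.21). With TMM SAM1, which makes S-adenosylmethionine, was at 1.14 ± 0.15 and THR1, homoserine kinase, at 1.06 ± 0.16. The direction of respiration and of amino acid synthesis rests on the scaling. Ergosterol synthesis had 6 of 24 higher and 3 lower (median 0.11) with TMM, and 4 and 8 with column totals (-0.38), and ERG28 rose by 1.41 ± 0.16 with TMM.

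Cell wall proteins and enzymes had 14 of 30 higher and 1 lower with TMM (median 0.50), and 3 and 5 with column totals (0.01), with the mannoprotein TIR1 at 1.35 ± 0.17. Histones had 5 of 11 higher and 1 lower with TMM (0.52), and 2 and 2 with column totals (0.04), and HTB2, an H2B gene, rose from 1110 and 1266 CPM to 2224 and 3046 CPM. The secretory pathway had 11 of 42 higher and 4 lower with TMM (0.14), and 3 and 17 with column totals (-0.35), with SAR1, the GTPase of vesicle budding, at 1.18 ± 0.17 with TMM. The proteasome had 6 of 33 higher and 6 lower with TMM (-0.15), and 1 and 20 with column totals (-0.63). With TMM PRE1 of the core rose by 0.98 ± 0.14 and RPT2 of the base fell by 0.95 (SE 0.14). Chaperones had 5 of 37 higher and 4 lower, proton pumps 4 of 17 and 1, nuclear pore and transport genes 3 of 40 and 7, genes with regulatory upstream reading frames 3 of 12 and 3, and MATa genes 3 of 7 and 1, with TMM. With column totals these 5 lists had 1 higher each, and 20, 9, 26, 5 and 3 lower in the same order. Genes with introns had 105 of 243 higher and 22 lower with TMM (median 0.37) and 44 higher and 66 lower with column totals (-0.10), and ribosomal protein genes are among them.

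The call of a gene varied with the length of its coding region. In the class with the shortest coding spans, 78 to 615 nt, 38.2% of 883 genes were higher and 6.91% lower. In the class with the longest, 2319 to 14733 nt, 4.34% of 875 genes were higher and 21.4% lower. The median log2 fold change fell through the 6 classes, from 0.32 over 0.17, 0.07, -0.08 and -0.19 to -0.24 with TMM, and from -0.17 to -0.75 with column totals. It had the same order within each replicate pair, with 0.35 and 0.29 in the shortest class and -0.27 and -0.24 in the longest. Without ribosomal protein genes the shortest class had a median of 0.30. As shares of the tags of tested genes, the shortest class held 33.2% and 30.9% with Cap-Clip and 37.5% and 35.2% with Decapping Pyrophosphohydrolase, and the longest class 4.05% and 4.31% against 2.57% and 2.59%. The groups did not overlap in either class, and the exact permutation test with 2 libraries against 2 gave p = 0.33, the smallest it allows.

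Across the 5249 genes the log2 fold change and the log2 coding span had r = -0.338 and Spearman's rho = -0.344, a description over genes that share the same libraries. Abundance moves with both, since log2 CPM had r = -0.371 with coding span and 0.246 with the fold change. With genes divided in 3 classes by abundance, the median of the most abundant fell from 0.30 in the shortest of 3 classes of coding span to -0.22 in the longest, and that of the least abundant from 0.19 to -0.19. Leader length, available for 4851 genes, had r = -0.0336 with the fold change.

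The same order appeared at starts that did not depend on either enzyme for their choice. Of the positions with at least 10 CPM in both TAP libraries, 9268 were pyrimidine-purine steps. In genes of the shortest class 26% of these positions were higher and 11.1% lower (median 0.18), and in genes of the longest class 0.377% were higher and 53.6% lower (median -0.88). RNA integrity, which the files do not record, was not tested.

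**Figure D2:**
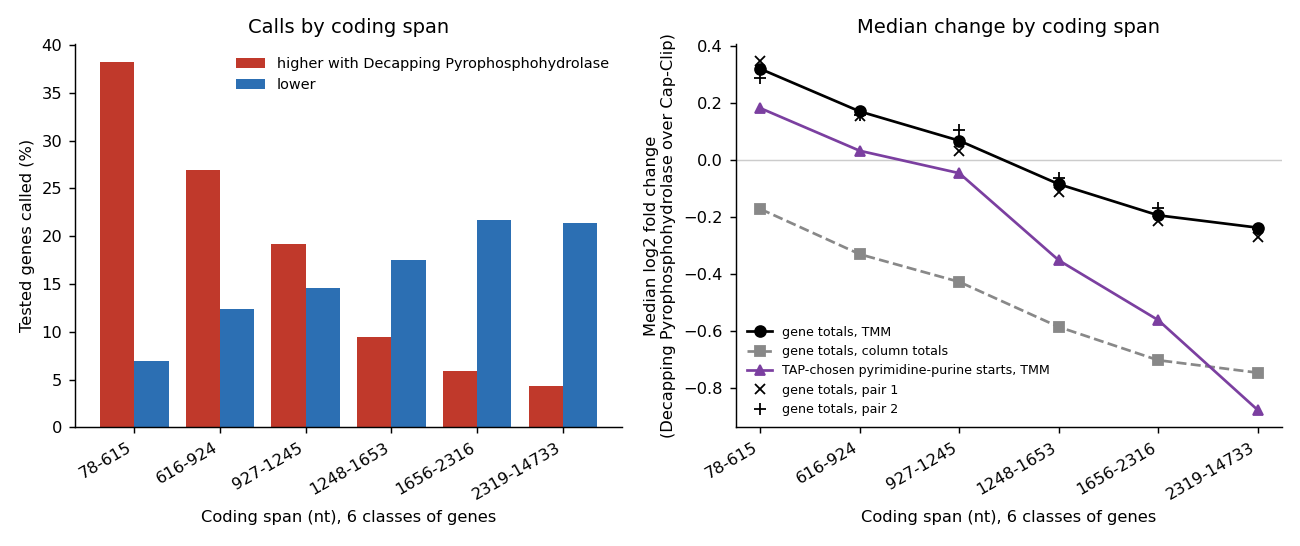
Left, percent of tested genes called higher or lower in 6 classes of coding span; right, the median log2 fold change per class with TMM, with column totals, at pyrimidine-purine starts chosen in TAP and in each replicate pair. Every line falls from the shortest to the longest class, from 0.32 to -0.24 with TMM.

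The enzymes also differed in which base their tags begin with. Thymine began 1.73% and 2.12% of window tags with Cap-Clip and 6.92% and 7.64% with Decapping Pyrophosphohydrolase. TAP gave 1.85% and 1.66%, and the libraries without enzyme 20.6% and 9.72%. Adenine began 76.7% and 74.6% of tags with Cap-Clip and 73.2% and 72.0% with Decapping Pyrophosphohydrolase, and guanine 19.7% and 21% against 17.0% and 16.9%. Cytosine began 1.88% and 2.29% against 2.86% and 3.40%. Pyrimidine-purine steps held 88.1% and 86.2% of window tags with Cap-Clip and 79.9% and 77.1% with Decapping Pyrophosphohydrolase. In each of these shares both libraries of 1 enzyme lay on the same side of both libraries of the other, and the exact permutation p was 0.33. With each position of at least 2 tags counted once, guanine and thymine still lay apart. Adenine overlapped (65.9% and 53.4% against 57.7% and 52.9%, exact permutation p = 0.667), as did cytosine (3.98% and 9.78% against 6.04% and 8.33%).

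Most of the added thymine tags began with 2 thymines. This pair began 0.519% and 0.605% of window tags with Cap-Clip and 4.96% and 5.21% with Decapping Pyrophosphohydrolase, 9.04 times the share. TAP gave 0.501% and 0.443%, and the no-enzyme libraries 6.60% and 4.81%. The pair makes up 11.7% of all upstream positions and 8.87% of coding positions. Cytosine followed by thymine rose in share from 0.635% and 0.748% to 1.64% and 1.87%, and thymine followed by adenine from 0.547% and 0.650% to 1.18% and 1.43%. For the other 13 pairs the ratio of shares lay between 0.82 and 1.25.

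**Figure D3:**
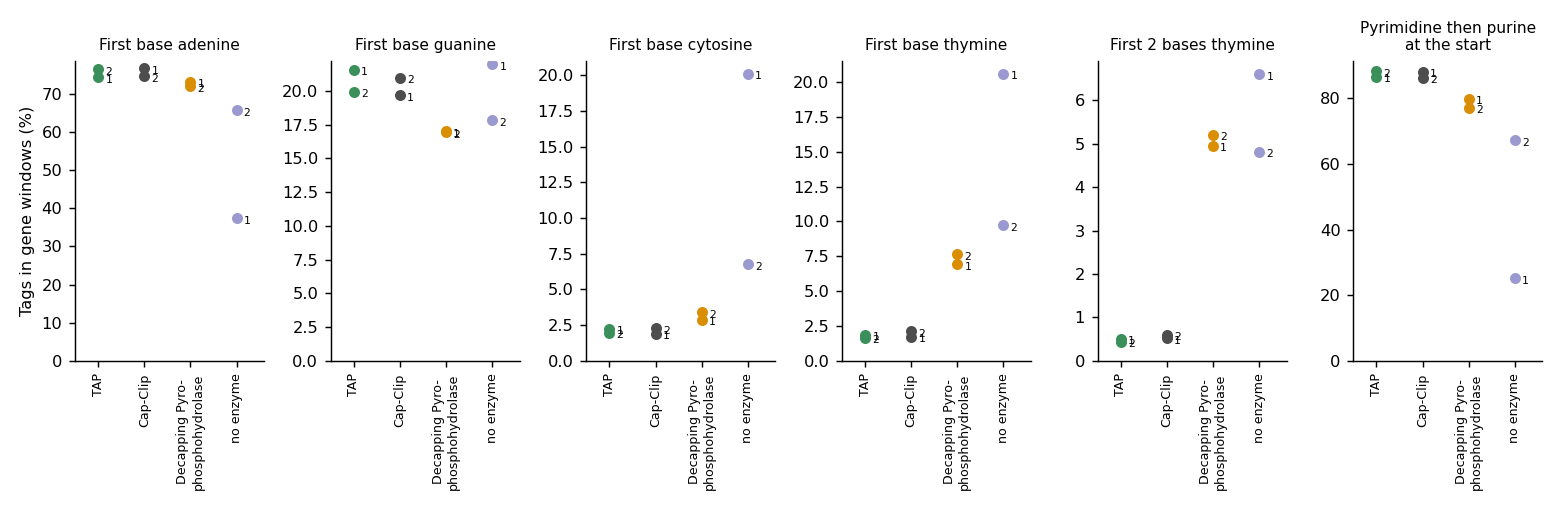
Shares of tags per library, as percent, for TAP, Cap-Clip, Decapping Pyrophosphohydrolase and no enzyme, with replicate numbers beside the points. Both Decapping Pyrophosphohydrolase libraries lie above both Cap-Clip libraries in tags that begin with thymine (6.92% and 7.64% against 1.73% and 2.12%) and below them in pyrimidine-purine tags.

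Tags that began with 2 thymines were found in most genes and regions. Among 1576 genes with at least 100 tags in each of the 4 libraries, 1476 had a higher share in both Decapping Pyrophosphohydrolase libraries than in both Cap-Clip libraries (93.7%), and 0 had a lower one. The median share per gene was 0.414% and 0.496% with Cap-Clip and 3.92% and 3.98% with Decapping Pyrophosphohydrolase. Between -50 and -21, where many starts lie, the pair began 0.178% and 0.202% of tags with Cap-Clip and 2.95% and 3.31% with Decapping Pyrophosphohydrolase. From +1 to +50 the shares were 1.13% and 0.995% against 22% and 21.6%, and beyond +50 they were 5.72% and 5.86% against 19.5% and 18.4%. Without enzyme the pair began 4.46% and 2.77% of tags between -50 and -21. It began 7.58% and 14.9% from +1 to +50 and 6.73% and 8.64% beyond +50. In the least abundant of 6 classes of genes by TAP level the pair began 1.72% and 1.95% of tags with Cap-Clip and 10.3% in each Decapping Pyrophosphohydrolase library. In the most abundant class it began 0.392% and 0.467% against 4.52% and 4.80%, so its share was lower in abundant genes with both enzymes.

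At single positions, 6024 of 25244 tested positions in gene windows were higher with Decapping Pyrophosphohydrolase (23.9%) and 3202 were lower (12.7%) with TMM. With column totals 3485 of 28673 were higher (12.2%) and 8781 lower (30.6%). Under both scalings 3470 were higher and 3202 lower. Without Cap-Clip replicate 2 the TMM counts were 3832 and 1444, and without Decapping Pyrophosphohydrolase replicate 2 they were 4136 and 1735. A position that passed the filter on low counts only through Decapping Pyrophosphohydrolase had to be higher there. Of the 25244 tested positions 20648 would pass in 2 of the 4 TAP and Cap-Clip libraries, and of the 6024 higher ones 3033 would. Of 1553 tested positions that begin with thymine, 211 would. The counts of calls at such positions, 1416 of 1553 higher and 7 lower, are therefore a description. Among the 60 positions beginning with thymine that were chosen by their level in TAP, 36 were higher and 1 lower, beside 18.4% higher and 19.3% lower of all 10353 positions chosen in that way.

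The 2570 positions called higher by at least 2 on the log2 scale lay in 730 genes. They held 1.03% and 0.907% of the window tags with Cap-Clip and 8.64% and 8.95% with Decapping Pyrophosphohydrolase, and this choice fixes the direction. Only 258 of them would pass the filter in 2 of the 4 TAP and Cap-Clip libraries, so their bases and places below are a description. Without enzyme they held 1.65% and 6.55%. Thymine stood at the first base in 50.4% of them, at the second in 74.3% and at the next in 50.4%. Adenine stood 3 bases before the tag in 57.4%. At positions not called these shares were 0.812%, 25.7%, 21.2% and 43.7%, in the same order. An adenine 8 bases before the tag, a known feature of yeast starts, was found in 42.5% of the 2570 positions. It was more frequent at positions not called (57.7%) and at lower positions (64.1%).

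**Figure D4:**
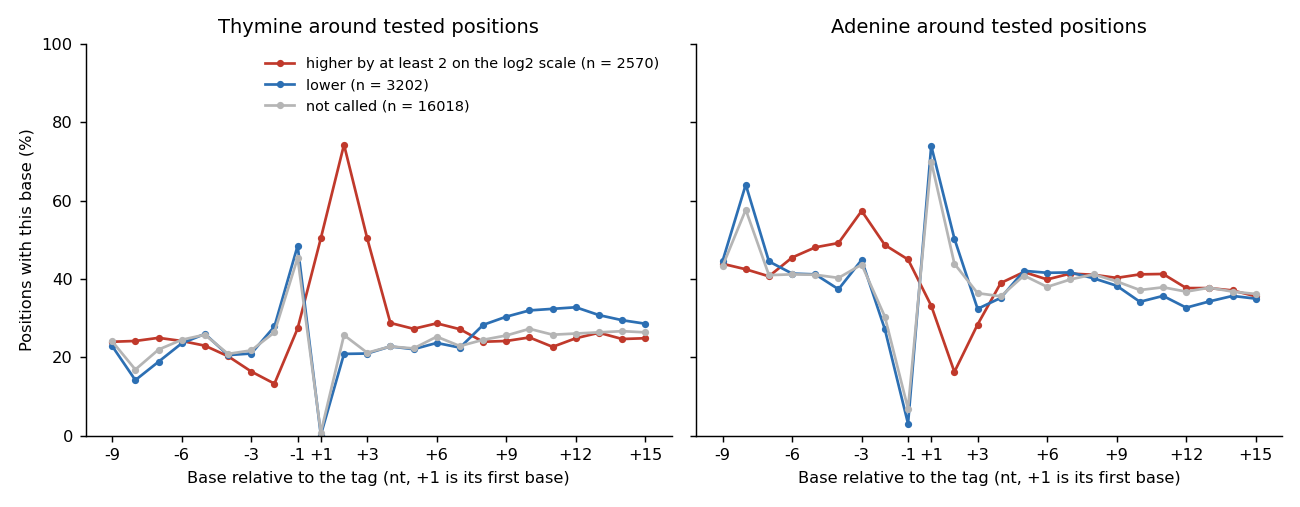
Percent of each base at the positions around a tag, for positions called higher by at least 2 on the log2 scale, not called, and called lower. Thymine reaches 74.3% at the second base of the higher positions, most of which passed the filter on low counts only through Decapping Pyrophosphohydrolase, and adenine stands at the first base in 74.0% of the lower positions.

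Relative to the strongest TAP start of the gene, 78.1% of the 2570 positions were downstream, 25.8% within 10 nt. Of positions not called 40.8% were downstream, 16.9% within 10 nt, and of lower positions 33.0% and 14.4%. In the 1576 genes with at least 100 tags, the strongest TAP start held a median of 29.6% and 29.0% of the tags of a gene with Cap-Clip and 25.7% and 24.7% with Decapping Pyrophosphohydrolase. Its share was lower in both Decapping Pyrophosphohydrolase libraries in 888 genes (56.3%) and higher in 145 (9.2%).

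Several of the named positions had almost no tags with Cap-Clip. At RPL5, of the large subunit, the position +327 inside the coding region had 0 and 0 tags with Cap-Clip and 94 and 177 with Decapping Pyrophosphohydrolase, at least 243-fold higher in CPM on a floor of 3 tags over both Cap-Clip libraries. At ACB1, which encodes the acyl-CoA binding protein, the position -26 had 0 and 0 tags against 55 and 142, at least 176-fold higher. At RPP2B, a protein of the ribosomal stalk, the position -64 had 1 and 1 tags against 199 and 474, a ratio of 904 (95% counting interval 249 to 7480). At TDH2, glyceraldehyde-3-phosphate dehydrogenase, the position -37 had 1 and 3 tags against 236 and 691, a ratio of 623 (242 to 2290). TDH2 has a near-identical copy, and the sharing of reads between them was not tested. At CDC19, pyruvate kinase, the position +18 had 0 and 1 tags against 92 and 227. Such intervals and floors cover counting error only. Without enzyme RPL5 had 4 and 2 tags at its position, ACB1 6 and 0, RPP2B 7 and 4, TDH2 7 and 9 and CDC19 0 and 4. In CPM scaled to column totals, in the same order, these were 5.43 and 24.8, 8.15 and 0, 9.51 and 49.6, 9.51 and 111.5, and 0 and 49.6.

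PMA1, the plasma membrane ATPase that pumps protons, had both kinds of change. Its position -6 had 0 and 2 tags with Cap-Clip and 174 and 336 with Decapping Pyrophosphohydrolase, while its position -236 had 578 and 366 CPM against 210 and 205 CPM. Without enzyme the position -6 had 7 and 4 tags (9.51 and 49.6 CPM scaled to column totals). Among the lower positions, HAC1 at -66, its fullest start, fell from 545 and 507 CPM to 69.8 and 111 CPM (-2.52 ± 0.25, adjusted p = 1.06e-09). SNU13, a protein of the spliceosome and of small nucleolar particles, fell at -116 from 40.6 and 33.7 CPM to 5.64 and 4.78 CPM (-2.82 ± 0.31). NOP16, of ribosome biogenesis, fell at -64 from 105 and 109 CPM to 15.5 and 24.2 CPM (-2.38 ± 0.23). The 10 named lower positions ranged from -2.93 at RPS12 -31 to -2.08 at DPS1 -84.

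Position use within a gene asks whether a start changed relative to the other starts of its gene. Of 24419 tested positions, 2857 had higher use with Decapping Pyrophosphohydrolase (11.7%) and 808 lower use (3.31%), in 983 of 3162 genes. The same filter on low counts applied, so positions that passed only through Decapping Pyrophosphohydrolase entered because they were high there. The balance of higher and lower use is therefore a description. The positions named below with 0 Cap-Clip tags passed in this way. Without Cap-Clip replicate 2 the counts were 1699 and 255, and without Decapping Pyrophosphohydrolase replicate 2 they were 1878 and 642. At GLN1, glutamine synthetase, the start at -117 held 66.4% and 63.6% of the tags with Cap-Clip and 27.3% and 17.0% with Decapping Pyrophosphohydrolase. At -108 the same gene went from 0 tags to 11% and 11.6% of its tags, and at -109 from 0.765 and 0.407 CPM to 74.7 and 81.9 CPM. The GLN1 total itself had a log2 fold change of 0.22.

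At BAT2, an aminotransferase of branched-chain amino acids, the start at -57 fell from 38.6% and 32.6% of the tags to 8.63% and 3.17%, and the position -37, with 0 tags in both Cap-Clip libraries, held 9.31% and 7.97%. At RAD23, which brings ubiquitinated proteins to the proteasome, the start at -159 fell from 28.5% and 24.7% to 9.12% and 7.47%, and the position -151 went from 0 tags to 11.7% and 8.16%. At CTS1, the chitinase of cell separation, the start at -228 fell from 18.4% and 16.6% to 7.65% and 4.90%, and the position -193 went from 0 tags to 4.59% and 4.32%. In TAP these starts were close to Cap-Clip, with 61.9% and 65.2% at GLN1 -117.

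**Figure D5:**
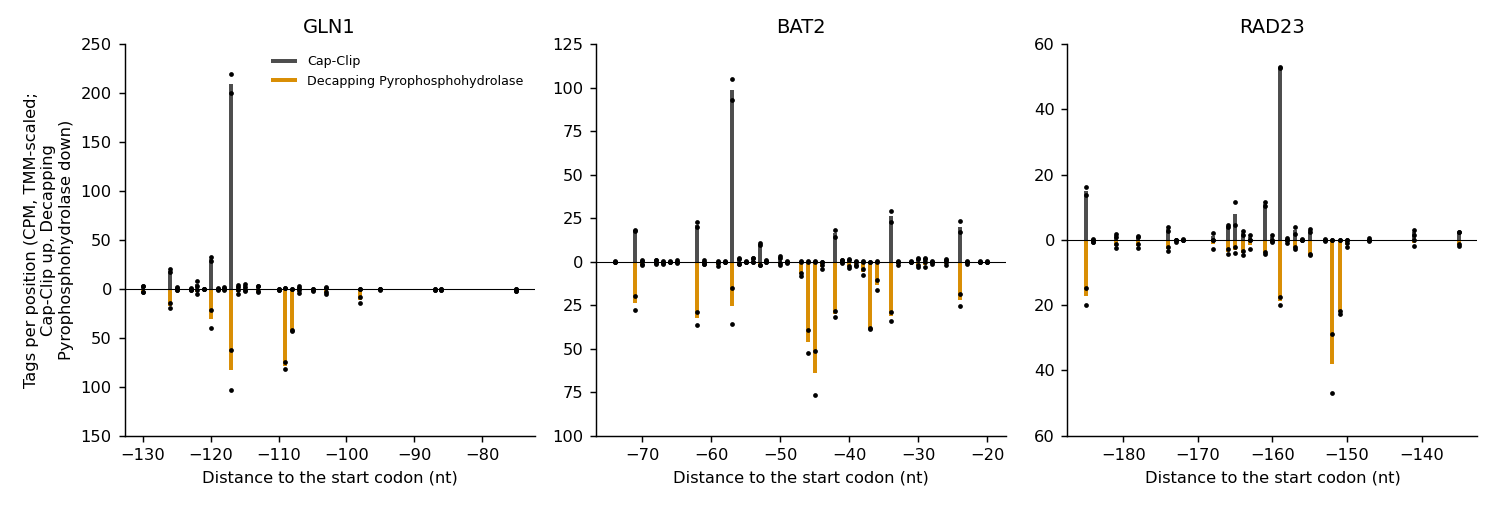
CPM at each position upstream of GLN1, BAT2 and RAD23, with Cap-Clip drawn upward, Decapping Pyrophosphohydrolase downward and a dot for each library. The start at GLN1 -117 is shorter with Decapping Pyrophosphohydrolase (103 and 62.8 CPM against 219 and 200 CPM). Positions with 0 tags in both Cap-Clip libraries stand downstream of the lower starts, at GLN1 -108, BAT2 -37 and RAD23 -151.

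Body tags were more frequent with Decapping Pyrophosphohydrolase. With TMM 1372 of 3606 tested bodies were higher (38.0%) and 13 lower (0.361%), with a median log2 fold change of 0.57. With column totals 246 of 3867 were higher (6.36%) and 81 lower (2.09%), 8.46% in either direction, with a median of 0.02, so most of the calls rest on the scaling, and 245 higher and 13 lower held under both. Leaving out Cap-Clip replicate 2 gave 770 higher and 6 lower, Decapping Pyrophosphohydrolase replicate 2 gave 850 higher, and Decapping Pyrophosphohydrolase replicate 1 gave 28 lower. Body tags were 5.06% and 6.24% of window tags with Cap-Clip and 6.95% and 6.94% with Decapping Pyrophosphohydrolase (exact permutation p = 0.33). In 3183 of 3606 genes the body had a larger log2 fold change than the gene total, with a median difference of 0.59. The filter on low counts applied here too, so a body that passed only through Decapping Pyrophosphohydrolase had to be higher there. The number of such bodies was not counted. The balance of body calls and the difference from gene totals are therefore a description.

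The body of RPS27B had 20.7 and 18.0 CPM with Cap-Clip and 656 and 471 CPM with Decapping Pyrophosphohydrolase (4.90 ± 0.25, adjusted p = 2.01e-57). Its position +568 alone held 308 and 370 tags against 0 and 3. Distances are along the genome, so in genes with introns a body position can lie nearer the start codon in the spliced RNA. RPS11A, of the small subunit, rose from 17.6 and 21.9 CPM to 226 and 213 CPM (3.40 ± 0.23), RPS7A by 2.69 ± 0.26, RPL42A by 2.60 ± 0.23, and TYS1, the tyrosyl-tRNA synthetase, from 17.6 and 24.95 CPM to 134 and 141 CPM (2.59 ± 0.23). PLB2, a phospholipase, rose from 2.30 and 4.28 CPM to 21.1 and 34.5 CPM (2.87 ± 0.29). With 4.97 and 2.62 CPM in TAP, PLB2 passed the filter, at 4.32 CPM, only through Decapping Pyrophosphohydrolase. Among the lower bodies MAD1 fell from 26.8 and 25.97 CPM to 13.4 and 8.82 CPM (-1.31 ± 0.29, adjusted p = 7.06e-05). OM45, of the mitochondrial outer membrane, fell by 0.98 (SE 0.27), and YMR001C-A, RIC1, MET7 and MAK11 had log2 fold changes between -0.82 and -0.67.

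Beside the 38.0% of all tested bodies that were higher with TMM and their median of 0.57, all 18 tested bodies of glycolysis and fermentation were higher (median 1.31), 69 of 80 in the large subunit (1.14), 46 of 57 in the small subunit (0.98) and 17 of 21 among transfer RNA synthetases (1.04). With column totals, where 6.36% of all bodies were higher, these lists had 10, 33, 19 and 3 higher bodies and 0 lower (medians 0.82, 0.64, 0.49 and 0.54). Bodies of ribosome biogenesis factors were higher in 24 of 61 with TMM (39.3%), close to the share of all bodies. Among genes with introns 139 of 205 bodies were higher and 0 lower with TMM (67.8%, median 0.95). With column totals 48 of these bodies were higher and 3 lower (median 0.43). Of the bodies called higher, 512 belonged to genes called higher and 77 to genes called lower. Thymine began 17.2% and 18.5% of body tags with Cap-Clip and 28.1% and 27.5% with Decapping Pyrophosphohydrolase, and pyrimidine-purine steps made up 35.3% and 33.8% against 27.7% and 26.9%.

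At equal depth, with each library thinned to 1268757 tags, 5238 and 5282 genes had at least 5 tags with Cap-Clip and 5181 and 5138 with Decapping Pyrophosphohydrolase. Pyrimidine-purine positions with at least 5 tags numbered 20311 and 22014 with Cap-Clip and 16085 and 16113 with Decapping Pyrophosphohydrolase. Positions at other steps numbered 3642 and 4169 against 5863 and 6702. Decapping Pyrophosphohydrolase thus gave fewer positions at the usual step and more at others, and these numbers were not tested.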

How the data were processed

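The values are counts that the authors deposited: 5′ ends per genome position and strand, from 50 nt reads, not normalized. Reads were aligned with Novoalign to R64 (sacCer3), per the submitters' processing notes, and the version is not given in the sources used here. Whether tags with the same 8 nt random barcode were collapsed is not given either, the highest count at a position being 57150 with 65536 possible barcodes. Columns were matched to samples by name.

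Tags were summed per R64 annotation gene (window of 400 nt upstream to the stop codon), per body (from 50 nt into the coding region) and per position. A position inside a coding region belongs to that gene, otherwise to the nearest start codon downstream within 400 nt. Positions were read as 1-based, where 84.9% of tags fell on a pyrimidine-purine step, against 4.87% and 2.24% at the neighbouring offsets. Library depth was 1268757 to 8475181 tags in the 4 compared libraries, and its counting error was smaller than the difference between replicates.

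Tests were edgeR 4.0.16 quasi-likelihood tests (R 4.3.3), 2-sided, robust, with filterByExpr (minimum count 10) and Benjamini-Hochberg adjustment over all tested features, called under 0.05. The 6 enzyme-treated libraries, TAP included, shared 1 estimate of the spread. TMM factors from gene totals (Cap-Clip 1.03 and 1.16, Decapping Pyrophosphohydrolase 0.793 and 0.782) were used for genes, bodies and positions, and column totals are given beside them. Position use was tested with diffSpliceDGE. Shares were compared by a 2-sided exact permutation test, whose smallest p is 0.33 here. Scripts were tested on simulated data.

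Each of 2 biological replicates was divided in 4 after the phosphatase step, per the labels' protocols and the series' design, which do not state that equal replicate numbers mark the same one. The fit had no replicate block, and a blocked fit was an alternative, as were DESeq2 1.42.0, other filters, windows, depths and libraries. With 2 libraries per enzyme, p-values measure the spread between these libraries.

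Named genes were the 12 higher and 12 lower called genes with the largest change, at least 20 CPM, both replicate pairs in that direction, the same direction with column totals and the same call when windows end at the upstream coding region, the 10 most abundant, and leading members of the 24 gene lists. Positions (10 each way), bodies (6 each way, at least 10 CPM) and position use (8 genes) followed similar rules. GLN1 -109 and PMA1 -236 were named after their values were seen. The members and lists were chosen with earlier results of these data known.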

Additional observations from a re-analysis of the deposited data

How the results depend on the processing

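Gene totals gave 357 higher and 377 lower calls with all 8 libraries in the fit, 393 lower with DESeq2, 230 and 2544 with column totals, and 550 lower after thinning to equal depth. On pyrimidine-purine positions alone, an alternative added after seeing the data, there were 577 higher and 1491 lower. With each position counted once edgeR called 0 and 0 (510 higher and 550 lower of 5226 at an unadjusted p under 0.05), and RPS29A and MRPL51 changed direction, to -0.06355 and 0.01513. The cause was not tested. The difference in median log2 fold change between the shortest and longest coding spans, 0.556, was 0.664 with each position counted once and 0.815 on pyrimidine-purine positions. Bodies gave 769 higher and 5 lower calls with all 8 libraries, 91 and 31 with DESeq2, 246 and 81 with column totals, 698 and 6 after thinning, and 311 and 233 with TMM factors from bodies (added after seeing the data). Lower bodies were 8 with the 4 libraries alone, 7 from 150 nt, 53 over the whole coding region and 22 with a replicate block, which moved no other count of calls by over 1.5 times. The samples are not shown to be paired by number: the correlation of the replicate differences was 0.193 between the compared enzymes, 0.150 between TAP and Decapping Pyrophosphohydrolase and 0.0439 between TAP and Cap-Clip. Positions gave 3397 and 1062 with all 8 libraries, 3732 and 1025 with DESeq2, 3485 and 8781 with column totals, 3529 and 1490 after thinning, and 9933 higher at a minimum of 10 tags. The difference in genes detected, -100.5 at 5 tags, was -42.5 at 2 tags and -269.5 at 10.

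Leaving out 1 library at a time gave 502 to 1117 higher and 383 to 976 lower gene totals, 0.527 to 0.640 for the coding span difference, 770 to 1282 and 6 to 28 bodies, 3832 to 7683 and 1444 to 3578 positions, and 1699 to 3830 and 255 to 1073 positions by use. Differences in shares, in percentage points, ran from 0.707 to 1.885 for bodies, -4.09 to -2.01 for adenine, 0.78 to 1.318 for cytosine, -4.0 to -2.71 for guanine, 5.00 to 5.72 for thymine and -10.06 to -7.23 for pyrimidine-purine steps. Of the values of named features under these alternatives, 825 of 916 for gene totals, 169 of 190 for bodies, 258 of 260 for positions and 95 of 95 for position use kept direction and call. With 2 libraries per enzyme and 1 strain, shares cannot pass an exact test, and low counts limit bodies and single positions most in the shallow libraries.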

Other observations

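RNAs that code for no protein were tested in a table of their own, 88 in all. Those encoded in introns lie inside the windows of their host genes. The same filter on low counts applied, so an RNA that passed only through Decapping Pyrophosphohydrolase had to be higher there. The number of such RNAs was not counted, and the balance of calls is a description. Over all 88, 48 were higher with Decapping Pyrophosphohydrolase (54.5%) and 2 lower (2.27%) with TMM, with a median log2 fold change of 0.82. With column totals, an alternative added after seeing the data, 19 of 87 were higher (21.8%) and 3 lower (3.45%), with a median of 0.30. Among small nucleolar RNAs, which guide the modification of ribosomal RNA, 43 of 70 were higher with Decapping Pyrophosphohydrolase and 0 lower with TMM (median 0.93), and 15 of 69 and 0 with column totals (median 0.41). Without enzyme, in CPM scaled to column totals, some had more: SNR190 7699 and 756 (Decapping Pyrophosphohydrolase 407 and 212), SNR128 4044 and 322 (176 and 140). Others had less: SNR13 16.3 and 74.3 (264 and 117), SNR82 10.9 and 61.9 (139 and 79.0). The part of uncapped or cut RNA was not tested. Of 6 small nuclear RNA genes of the spliceosome 4 were higher and 1 lower under both scalings. Among the higher ones SNR6 and SNR14 passed the filter only through Decapping Pyrophosphohydrolase, and SNR7-L and SNR7-S count nearly the same tags. CPM values and fold changes below are with TMM. SNR6, the U6 RNA, had 0 and 6 tags with Cap-Clip and 14 and 22 with Decapping Pyrophosphohydrolase, and SNR14, the U4 RNA, had 5 and 20 against 25 and 52. SNR7-L and SNR7-S (long and short U5 RNA), whose 5′ ends coincide, were higher by 2.03 and 2.02. LSR1, the U2 RNA, fell from 236 and 259 CPM to 132 and 98.5 CPM (-1.11 ± 0.29, edgeR adjusted p = 0.00059). SNR19, the U1 RNA, had a log2 fold change of 0.56 and was not called (edgeR adjusted p = 0.0846). TLC1, the telomerase RNA, rose by 0.75 on the log2 scale (edgeR adjusted p = 0.0314) but was not called with column totals (0.26, edgeR adjusted p = 0.574), and RPR1, the RNA of RNase P, fell by 1.13 (edgeR adjusted p = 0.0151). SCR1 and NME1 were not called with TMM, but with column totals SCR1 was called lower (-0.71, edgeR adjusted p = 5.14e-05). The counts of SNR6, SNR14 and RPR1 are low, and only polyadenylated forms of these RNAs were selected.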
